A study of Mus musculus with 4 samples.

Results

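Cd7, Txk, Blk, Lck, Zap70, Sla, Sla2 and Tcf7 form a group of 8 lymphoid genes: a surface receptor, 4 tyrosine kinases, 2 adaptors and a transcription factor. They were taken from 32496 genes and unnamed targets on the array, and all 8 were found through their RefSeq accessions, on 11 of 39429 probes. Lck, Blk, Txk, Sla and Cd7 had 1 probe each and Sla2, Zap70 and Tcf7 had 2. The group was chosen because Cd7, Txk and Sla2 were higher in the Rbpj-deficient cells of this same comparison. Its values are therefore given as a description, with no test.

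RNA came from CD11c+ cells of marrow cultures grown for 6 days in GM-CSF at 20 ng/mL, from female C57BL/6 mice of 8 weeks. The BMDC_RFF11 cells (RFF11, Rbpj-deficient, 2 arrays) carried loxP-flanked Rbpj alleles (Rbpj fl/fl) and a CD11c-cre, that is, a cre recombinase driven by the promoter of CD11c (Itgax). The BMDC_RFF cells (RFF, control, 2 arrays) carried Rbpj fl/fl alone. All groups thus held the floxed alleles, no array held the cre without them, and the effects of the cre and of the loss of Rbpj cannot be told apart. The labels give 4 pooled mice per condition and do not say that the 2 arrays came from separate pools, so any p-value here reflects variation between 2 arrays per genotype that may be technical alone.

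On the RFF11 arrays 58.4% and 57.7% of gene spots were well above background, against 55.2% and 58.1% on the RFF arrays. Levels are log2 signals from which the 75th percentile of the gene spots on that array was subtracted, so that a level of 0 lies in the upper part of all spots. Rbpj read 1.37 and 1.44 on the RFF11 arrays, against 2.69 and 2.61 on the RFF arrays. It fell by 1.25 on the log2 scale (SE 0.06, limma adjusted p = 0.0278), but did not pass with any 1 array left out (changes between -1.29 and -1.21). Itgax, which marks the sorted cells, read 6.65 and 6.45 in RFF11 cells, against 6.69 and 6.63 in RFF cells. The class II chain H2-Eb1 averaged 8.16 ± 0.10 in RFF11 cells and 8.14 ± 0.01 in RFF cells (SD, n = 2 each). Itgax and H2-Eb1 were thus bright in both.

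In lymphocytes the kinases and adaptors among these genes act in antigen receptor signalling. LCK, a kinase of the Src family, phosphorylates the receptor's signalling chains, ZAP-70, of the Syk family, binds the phosphorylated chains, and kinases of the Tec family such as TXK act further downstream. BLK is the Src family kinase best known from B cells. The adaptors SLAP (Sla) and SLAP2 (Sla2) resemble Src kinases without a kinase domain and help the ubiquitin ligase CBL to remove receptors from the surface. CD7 is an immunoglobulin-like surface protein of T cells, natural killer cells and their precursors. TCF-1 (Tcf7) is a transcription factor of early T cell development that Notch signalling induces in the thymus. Notch acts through RBPJ, which binds DNA at the core letters TGGGAA.

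Promoters of Sla2, Txk, Lck and Zap70 are shown, from 250 bases before to 50 bases after the first listed transcription start. They were picked because Sla2 and Txk were higher in RFF11 cells while Lck and Zap70 differed far less. The sequences are from RefSeq on GRCm38.p6, 5' to 3' on the gene's strand, with TGGGAA in capitals.
Sla2, chr2:156887172-156887471, minus strand: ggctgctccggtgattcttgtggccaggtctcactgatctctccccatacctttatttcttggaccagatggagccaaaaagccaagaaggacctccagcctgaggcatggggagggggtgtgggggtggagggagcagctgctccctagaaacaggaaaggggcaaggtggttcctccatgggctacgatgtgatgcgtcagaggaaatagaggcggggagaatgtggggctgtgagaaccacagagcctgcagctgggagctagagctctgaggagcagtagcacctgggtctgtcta
Txk, chr5:72752728-72753027, minus strand: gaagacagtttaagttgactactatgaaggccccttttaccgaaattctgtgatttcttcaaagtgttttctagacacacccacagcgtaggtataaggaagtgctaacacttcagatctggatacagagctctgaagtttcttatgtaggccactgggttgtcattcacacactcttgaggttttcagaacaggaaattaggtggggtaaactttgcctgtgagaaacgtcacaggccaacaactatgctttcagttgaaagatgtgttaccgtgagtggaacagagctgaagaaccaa
Lck, chr4:129573592-129573891, minus strand: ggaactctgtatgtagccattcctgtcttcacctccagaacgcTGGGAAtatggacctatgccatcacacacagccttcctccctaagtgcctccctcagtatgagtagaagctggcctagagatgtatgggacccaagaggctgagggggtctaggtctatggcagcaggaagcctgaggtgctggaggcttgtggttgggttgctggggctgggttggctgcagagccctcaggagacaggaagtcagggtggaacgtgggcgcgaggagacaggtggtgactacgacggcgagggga
Zap70, chr1:36761548-36761847, plus strand: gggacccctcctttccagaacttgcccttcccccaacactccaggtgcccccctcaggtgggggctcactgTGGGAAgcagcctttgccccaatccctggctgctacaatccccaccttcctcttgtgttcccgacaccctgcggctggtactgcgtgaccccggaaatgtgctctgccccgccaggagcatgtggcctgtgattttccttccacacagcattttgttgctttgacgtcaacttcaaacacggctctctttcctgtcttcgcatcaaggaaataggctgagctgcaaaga
The letters TGGGAA, or TTCCCA on the other strand, were found once in the promoter of Lck and once in that of Zap70, and not in those of Sla2 and Txk. The Zap70 match starts at base 72 of the window and is also the longer form GTGGGAA, which holds TGGGAA within it. The Lck match starts at base 44. The promoter table used here held 10 windows for 5 of the 8 genes, and 2 of the 10 held TGGGAA and 1 held GTGGGAA. Over all 32851 windows of the same length, 25.6% held TGGGAA and 6.38% held GTGGGAA on either strand. It held none for Cd7, Blk and Sla. A match is a stretch of letters and not evidence of binding, and the absence of one speaks only of these windows.

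Cd7 was higher in RFF11 cells on a probe far above background. Its only probe read 2.25 and 2.51 on the RFF11 arrays, against -0.54 and -0.45 on the RFF arrays. Both RFF11 values lay above both RFF values, with a gap of 2.70 on the log2 scale, and all 4 spots were well above background. The means were 2.38 ± 0.18 in RFF11 cells and -0.49 ± 0.06 in RFF cells (SD, n = 2 each), a difference of 2.88 or 7.35-fold. Under normexp, a background correction in which each signal gains an offset of 50, so that differences of dim probes become smaller, it was 2.80. Leaving out any 1 array gave between 2.75 and 3.01. In bulk RNA of this kind, more cells that express a gene and more of its RNA per cell cannot be told apart.

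Txk was detected in RFF11 cells alone. Its probe read -4.62 and -4.71 on the RFF11 arrays, against -7.56 and -7.42 on the RFF arrays, where neither spot was well above background. The processed signals behind these levels were 58.6 and 55.2 on the RFF11 arrays, against 7.26 and 8.30 on the RFF arrays. The RFF values are therefore only upper limits. Measured against the lowest level well above background on each RFF array, Txk was 1.99-fold brighter in RFF11 cells. This is not a strict minimum. On RFF replicate 1 that lowest level was -5.50, yet a Zap70 probe at -5.09 was not well above background. The difference of the measured means was 2.83, and it was 0.60 with normexp, or 1.52-fold.

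Blk, a kinase whose level differed almost as widely on the processed signal, was the least even between arrays. It read -3.53 and -3.69 on the RFF11 arrays, against -6.63 and -5.57 on the RFF arrays. The groups did not overlap, but the RFF arrays lay 1.06 apart from each other, and the dimmer of them, replicate 1, was not well above background. The means were -3.61 ± 0.12 in RFF11 cells and -6.10 ± 0.75 in RFF cells (SD, n = 2 each), a difference of 2.49. Without RFF replicate 1 the difference was 1.96, without RFF replicate 2 it was 3.02, and with normexp it was 0.94.

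Lck and Zap70, the kinases that start T cell receptor signalling, differed little. Lck read -3.42 and -3.11 on the RFF11 arrays, against -3.52 and -3.62 on the RFF arrays, all well above background. The RFF11 values lay above the RFF values by a gap of only 0.10, and the difference of the means was 0.30, with 0.15 to 0.46 when 1 array was left out. Zap70 read -5.16 and -5.04 on the RFF11 arrays, against -5.09 and -5.24 on the RFF arrays, on its brighter probe. The groups overlapped, the difference was 0.06, and the spot of RFF replicate 1 was not well above background. The dimmer Zap70 probe read -5.61 and -6.15 on the RFF11 arrays, against -7.08 and -7.30 on the RFF arrays. Its difference of 1.31 rests on 1 spot well above background, that of RFF11 replicate 1, and was 0.21 with normexp.

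The adaptors Sla2 and Sla stood apart from each other. Sla2 read -2.75 and -2.43 on the RFF11 arrays, against -4.11 and -4.38 on the RFF arrays, on its brighter probe, with all 4 spots well above background and no overlap. The means were -2.59 ± 0.23 in RFF11 cells and -4.24 ± 0.19 in RFF cells (SD, n = 2 each), a difference of 1.65 or 3.14-fold, and 1.09 with normexp. The second Sla2 probe did not show this. It read -5.75 and -5.55 on the RFF11 arrays, against -5.17 and -5.74 on the RFF arrays, where only the spot of RFF replicate 1 was well above background, so that it gives little measure of the gene. Sla, on 1 bright probe, read 2.37 and 2.27 on the RFF11 arrays, against 2.45 and 2.48 on the RFF arrays. The RFF11 values lay below the RFF values by a gap of 0.08, and the difference was -0.15.

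Tcf7 was slightly higher in RFF11 cells. Its brighter probe read -3.41 and -3.47 on the RFF11 arrays, against -3.79 and -3.79 on the RFF arrays, with no overlap and all spots well above background. The difference was 0.35, or 1.27-fold, and 0.15 with normexp. The second probe, at -7.82 and -7.07 on the RFF11 arrays against -6.78 and -6.70 on the RFF arrays, was not well above background on any array and gives no direction.

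**Figure D1:**
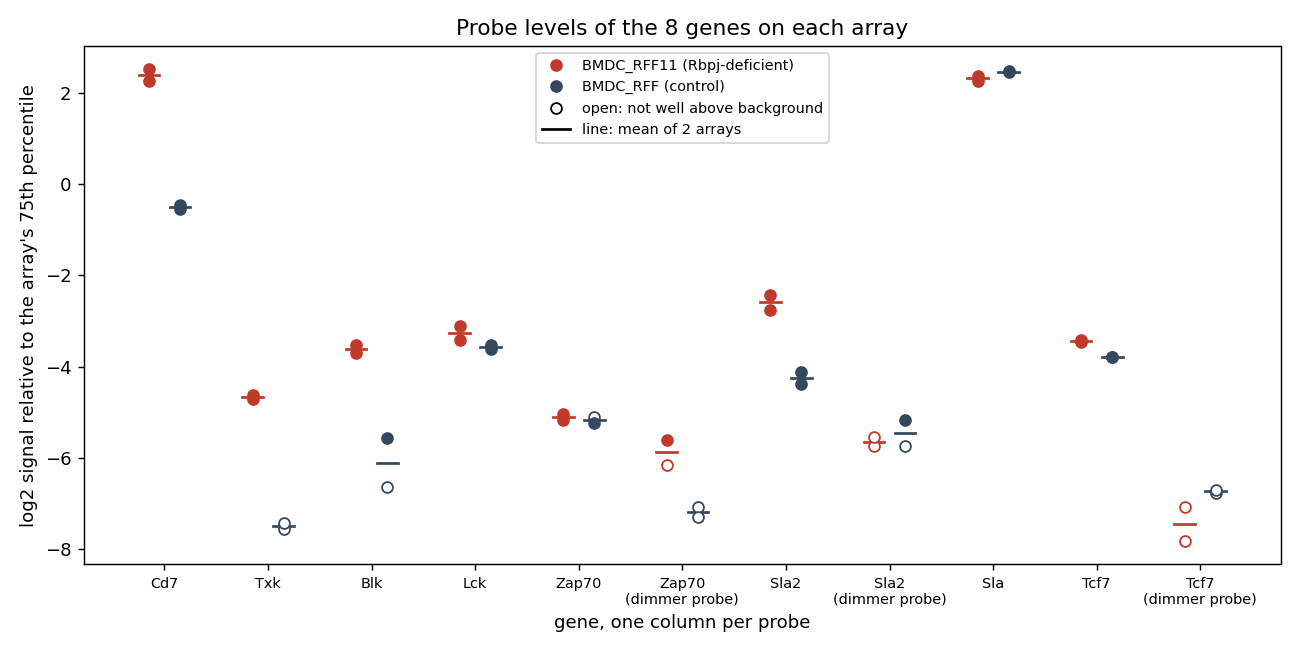
Level of every probe of the 8 genes on each array, as log2 signal minus the array's 75th percentile, with RFF11 arrays in red and RFF arrays in dark blue, lines at the means of 2 arrays, and open points for spots not well above background. Cd7 sits at 2.25 and 2.51 in RFF11 cells against -0.54 and -0.45 in RFF cells, whereas the RFF points of Txk are open.

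Of the 8 genes, 6 were higher in RFF11 cells with no overlap, Sla was lower with no overlap, and Zap70 overlapped. Over all 17974 genes tested 26.8% were higher and 32.3% lower with no overlap. The median difference of the 8 was 1.0, against -0.01 over all genes tested, and 4 of the 8 had a log2 difference over 1, as had 0.979% of all genes. Both values lean on the dim probes of Txk and Blk. With Txk measured against the lowest level well above background, the median was 0.67 and 3 of the 8 lay over 1. With normexp the median was 0.40 and 2 of the 8, Cd7 and Sla2, lay over 1. In the limma fit over all genes 3 of the 8, Cd7, Txk and Sla2, lay past the threshold of 0.05 after Benjamini-Hochberg adjustment, all higher and none lower, where 1.88% of all genes passed, 1.04% as higher and 0.84% as lower. None of the 3 passed without either RFF11 array, Txk alone passed without RFF replicate 1, and Cd7 and Txk passed without RFF replicate 2. As these genes were chosen on this comparison, the counts describe the choice. Txk, Blk and Zap70 entered that fit through their RFF11 spots alone, as their probes were not well above background on both RFF arrays. Just inside the choice by size lay Sla2 at 1.65, and just outside it Tcf7 at 0.35, apart from Blk, which at 2.49 did not pass.

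**Figure D2:**
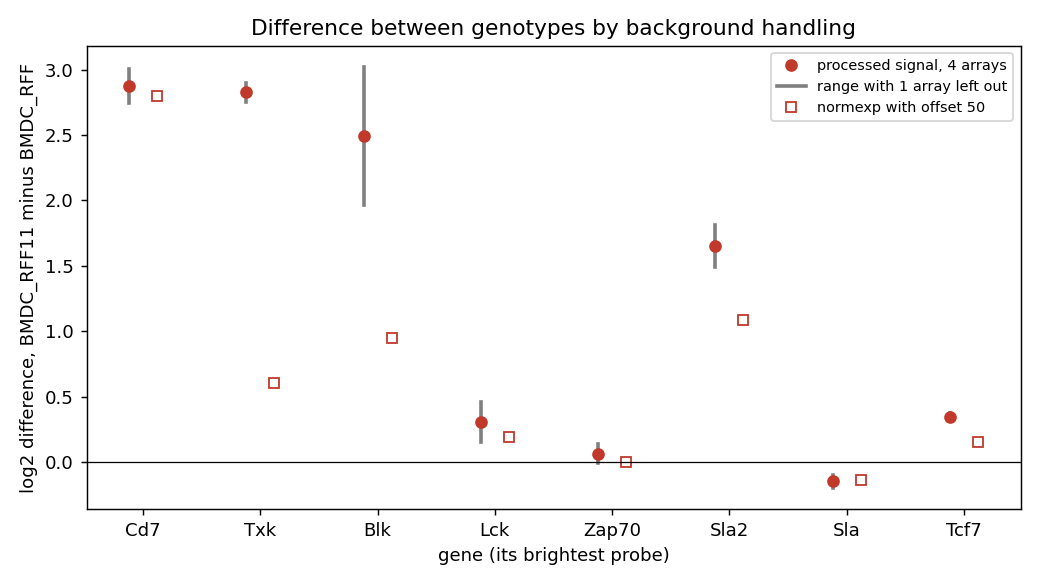
Log2 difference between RFF11 and RFF cells for the brightest probe of each gene, on the processed signal (filled circles, grey bars for the range with 1 array left out) and with normexp (open squares). Cd7 stands at 2.88 and 2.80, while Txk moves to 0.60 and Blk to 0.94 with normexp.

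Few other genes of the same signalling machinery passed the test. Of 91 such genes in 5 lists 70 were tested, and 4 rose, 1 fell and 65 did not pass, so that 7.14% passed against 1.88% of all genes. At an unadjusted p under 0.05 there were 29 of the 70, or 41.4%, against 24.1% of all genes. The median change was 0.06, against -0.01 over all genes. With 1 array left out, 0 to 2 genes of the lists passed. The lists were drawn up with earlier results of these arrays known.

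None of 9 tested Src, Tec and Syk family kinases passed in limma, with 4 at an unadjusted p under 0.05. Their median was 0.14, and 7 of the 9 lay above 0, as did 47.3% of all genes. Of the kinases known from myeloid cells, Syk stood at 0.18, Lyn at 0.13 and Btk at -0.07, none of which passed.

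Of 25 tested receptor chains, adaptors and effectors, the scaffold Bank1 and the adaptor Fyb rose and the adaptor Blnk fell, and 22 did not pass (median 0.07). Bank1, a scaffold of B cell receptor signalling, read -2.54 and -2.61 in RFF11 cells against -4.13 and -4.15 in RFF cells (1.56, SE 0.06, limma adjusted p = 0.0165, and 1.07 with normexp). It was the only one of the 5 called genes that passed in any fit without 1 array, in 1 of 4. Fyb, which links receptors to integrins, read 0.85 and 0.88 in RFF11 cells against 0.20 and 0.25 in RFF cells (0.63, SE 0.06, limma adjusted p = 0.0379). Blnk, which ties SYK to its effectors in B cells, read 2.05 and 2.17 in RFF11 cells against 3.24 and 3.36 in RFF cells (-1.19, SE 0.08, limma adjusted p = 0.0322). The linker Lat, a ZAP-70 substrate, stood at -0.02, its partner Lcp2 (SLP-76) at 0.44 and Vav1 at 0.19, without passing.

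Among 16 tested inhibitors of receptor signalling only Btla, a coinhibitory receptor, passed (median 0.17). It read -0.14 and 0.18 in RFF11 cells against -1.27 and -1.56 in RFF cells (1.43, SE 0.16, limma adjusted p = 0.0477). Csk, the kinase that restrains LCK, stood at 0.00, and the CBL proteins with which SLAP adaptors work stood at 0.39 (Cbl) and -0.20 (Cblb), without passing. Among 17 tested lymphoid transcription factors only Gata3 passed (median -0.01), at -2.27 and -2.42 in RFF11 cells against -4.02 and -3.89 in RFF cells (1.61, SE 0.09, limma adjusted p = 0.0289, and 1.08 with normexp). Lef1, the closest relative of Tcf7, and Bcl11b, which seals T cell commitment, were not well above background on any array.

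Of the genes for CD7 partners none of 3 tested passed in limma, with 1 at an unadjusted p under 0.05. Galectin-1 (Lgals1), a CD7 ligand, was at 5.85 and 5.50 in RFF11 cells against 6.19 and 6.27 in RFF cells (-0.55, limma adjusted p = 0.125), and Sectm1a, a CD7 ligand in the mouse, differed by 0.06.

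**Figure D3:**
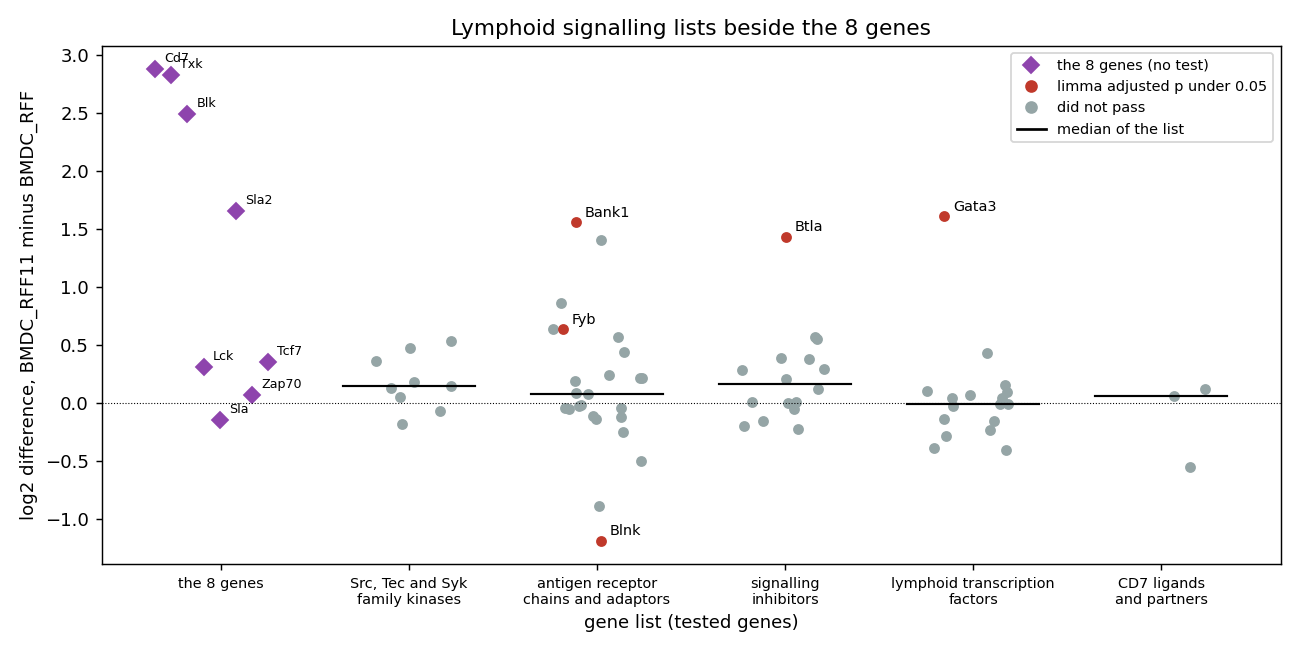
Log2 difference between RFF11 and RFF cells for the 8 genes (diamonds, no test) and for the tested genes of 5 signalling lists (red points passed limma at an adjusted p under 0.05, grey points did not, black lines are list medians). The list medians lie between -0.01 and 0.17, and the highest single list genes are Gata3 at 1.61 and Bank1 at 1.56.

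Marker lists of other cells held few genes that passed, and tested members of each list lay on both sides of 0. Their levels are given as signals summed over each list, in multiples of the array's 75th percentile, so that the brightest probes weigh most. The 14 T cell markers summed to 13.4 and 14.0 in RFF11 cells against 14.3 and 14.2 in RFF cells. None of 10 tested passed in limma, with 5 at an unadjusted p under 0.05, against 24.1% of all genes. Cd247, Cd8a, Cd8b1 and Trat1 were not well above background on any array, whereas Cd3e, at -0.58 in RFF11 cells and -0.45 in RFF cells, and Cd6, at 2.37 in RFF11 cells and 2.13 in RFF cells, were measured on all 4. Cd3g stood at 1.40 (limma adjusted p = 0.104) without passing, and did not overlap between the genotypes. Cd5 at 0.86, Cd3d at 0.63, Thy1 at 0.50 and Cd6 at 0.24 also lay higher in RFF11 cells without overlap. Cd2 at -0.89, Cd28 at -0.50, Il7r at -0.30 and Cd4 at -0.25 lay lower without overlap, and none of these genes passed. Over all genes tested 26.8% were higher and 32.3% lower without overlap. The median of the 10 tested was 0.06.

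The 12 B cell markers on the array summed to 0.64 and 0.67 in RFF11 cells against 0.64 and 0.64 in RFF cells. Of them 7, among them Ms4a1 and Pax5, were not well above background on any array. None of the 4 tested passed in limma, with 2 at an unadjusted p under 0.05, against 24.1% of all genes. The brightest, the inhibitory receptor Cd22, averaged -1.49 ± 0.08 in RFF11 cells and -1.49 ± 0.05 in RFF cells (SD, n = 2 each). Blk and Bank1 are best known from B cells.

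The 14 markers of natural killer and innate lymphoid cells summed to 9.09 and 8.48 in RFF11 cells against 10.2 and 10.2 in RFF cells, and Ncr1, Gzma, Xcl1, Il2rb, Eomes and Tbx21 were not well above background on any array. Klrb1c, the receptor NK1.1, rose by 1.14 (limma adjusted p = 0.0379, and 0.59 with normexp), did not pass with any 1 array left out, and the other 6 tested did not pass, among them the brightest, the interleukin-7 receptor Il7r (-0.30), and the granule gene Nkg7 (-0.21). On the mean of its tested probes Klrb1c rose by 1.01 and did not pass (limma adjusted p = 0.0754). The median of the 7 tested was 0.09, and 3 of them were at an unadjusted p under 0.05, against 24.1% of all genes.

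The 13 markers of plasmacytoid dendritic cells on the array summed to 121 and 119 in RFF11 cells against 94.3 and 109 in RFF cells. Siglech, on the brightest probe of the list, read 5.62 and 5.64 in RFF11 cells against 4.71 and 5.23 in RFF cells (0.66, limma adjusted p = 0.154). Spib stood at -1.55 and Cox6a2 at 1.49, so that the markers did not lie on one side. None of 11 tested passed in limma, with 5 at an unadjusted p under 0.05, against 24.1% of all genes. The 11 neutrophil markers on the array summed to 54.8 and 47.9 in RFF11 cells against 32.3 and 37.4 in RFF cells, and 2 of 11 tested passed, Mpo (0.74, limma adjusted p = 0.0378, and 0.45 with normexp) and Ngp (0.54, limma adjusted p = 0.0445), neither of them with any 1 array left out. The other 9 did not pass. At an unadjusted p under 0.05 there were 9 of the 11, against 24.1% of all genes. The median of the 11 was 0.62, with 9 above 0 and only Elane and Mmp8 below it, both at -0.14. The brightest, S100a9, a calcium-binding protein of neutrophils, stood at 0.85 (limma adjusted p = 0.0813). The 8 progenitor markers summed to 6.63 and 8.33 in RFF11 cells against 5.51 and 5.66 in RFF cells, none of 6 tested passed in limma, with 1 at an unadjusted p under 0.05, and the brightest, Cd34, stood at 0.14. Ly6a, the stem cell antigen Sca-1, read 0.61 and 1.47 in RFF11 cells against -0.43 and -0.69 in RFF cells, a difference of 1.60 (limma adjusted p = 0.0909), and weighs heavily in that sum. The part of plasmacytoid, neutrophil or progenitor cells in the levels of the 8 genes was not tested.

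**Figure D4:**
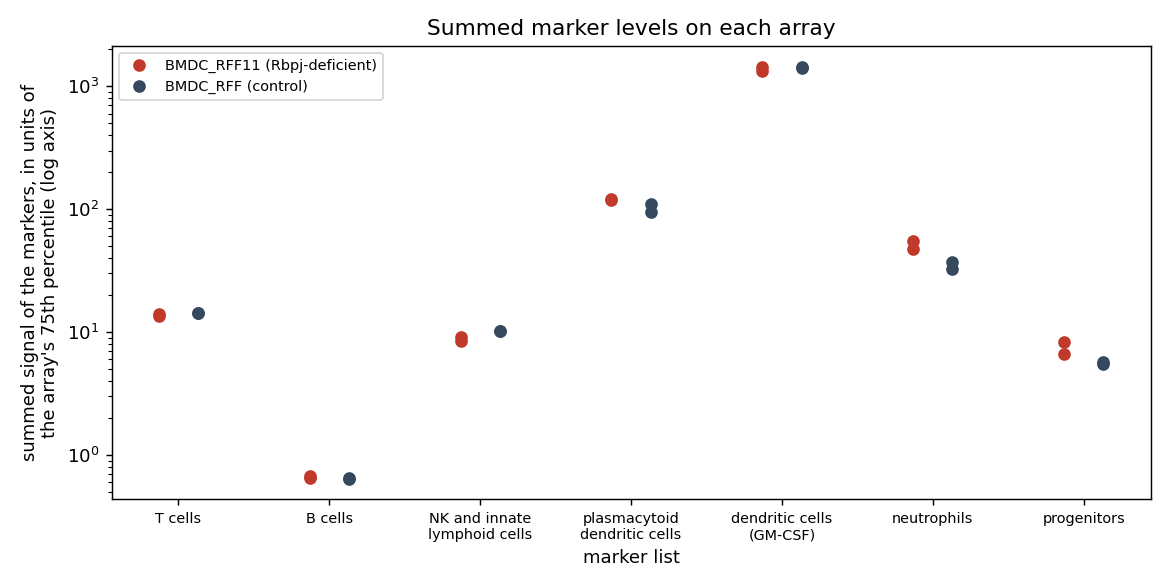
Summed signal of each marker list on each array, in units of the array's 75th percentile on a log axis, RFF11 arrays in red and RFF arrays in dark blue. The neutrophil sums are 54.8 and 47.9 in RFF11 cells against 32.3 and 37.4 in RFF cells.

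The genes whose 4 levels, centred on their mean, lay closest to those of Cd7 were the chemokine Ccl24 (root mean square difference 0.24), the ephrin receptor Epha2 (0.37) and the lectin Clec4a4 (0.43), among 12291 named genes well above background on all 4 arrays. With normexp the differences were 1.74 for Ccl24, 1.12 for Epha2 and 1.59 for Clec4a4, against 2.80 for Cd7. Their likeness to Cd7 thus depends on the background handling. No such genes are given for Txk, whose RFF levels are upper limits. Closest to Sla2 were the transporter Slco4a1 (0.10), Btla (0.11) and the growth factor Tgfb3 (0.12). With 4 arrays in 2 groups this likeness amounts mostly to a similar difference between the genotypes.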

How the data were processed

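Per the file headers, the authors read spot intensity using Agilent Feature Extraction (10.7.1.1), with background subtracted and spatial trends fitted within each array, and the deposited intensity was not scaled between arrays. The flags are other values of 0 or 1 from the same software, per the file headers. Per the labels, 150 ng of RNA was labelled with Cy3. The authors also deposited a table of log2 values whose making is not given in the sources used here. It matched the scanner log2 values centred per probe on their median (Pearson r over 39426 probes above 0.999 in every column, same direction, column medians 0.0528, -0.0305, -0.0339 and 0.0202 for RFF replicates 1 and 2 and RFF11 replicates 1 and 2), and the exact scaling stays unknown.

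Outlier spots were left out (127 to 176 per array), none were saturated, and log2 signals were reduced by the 75th percentile of the array. A probe was tested if both arrays of either genotype had it well above background, and a gene was its brightest probe. Limma 3.58.1 in R 4.3.3 gave adjusted p-values by the Benjamini-Hochberg method over 17974 genes. On simulated arrays of this comparison with 17973 genes, the share of changed genes it recovered was 2.8% at a log2 change of 0.5, 72.4% at 1 and 91.6% at 2. The simulated variances did not depend on level, so these shares may not hold for dim probes such as that of Blk. Names came from RefSeq accessions on GRCm38.p6 (26055 of 39429 probes matched 1 symbol, 0 several, 13374 none). The array annotation is on mm9.

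Normexp ran on the median spot signal, as the files used hold no mean signal. The 4 arrays shared 1 slide, and their position on it cannot be told apart from genotype. The genes and lists were chosen with earlier results of these data known. Named were all 8 genes with every probe, Rbpj and Itgax, and in each signalling list up to 2 highest and 2 lowest genes past the threshold, or else the farthest from 0. In marker lists the brightest marker was named, and for Cd7 and Sla2 the 3 genes with the most similar levels. The rule also covered Txk, for which they are not given. Any other gene was named with its value known. Some results that this rule covers are left out of the text. The number of arrays limits the precision.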

Additional observations from a re-analysis of the deposited data

How the results depend on the processing

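The direction of Cd7, Txk, Blk, Lck, Sla2, Tcf7 and Sla was kept under every alternative run for them (12 for Txk and Blk, which are not well above background on all 4 arrays, and 13 for the others). Zap70, at 0.06, lay between -0.01 and 0.14. Txk ranged from 0.60 to 2.93, Blk from 0.94 to 3.02, Sla2 from 1.09 to 1.81 and Tcf7 from 0.15 to 0.38, with normexp lowest in each. Cd7 ranged from 2.75 to 3.01. Cd7, Txk and Sla2 lost their call with no filter on dim probes (adjusted p 0.246, 0.246 and 0.26), with the replicate number as a block (0.0676, 0.0676 and 0.108) and without either RFF11 array, and Sla2 passed in no fit without 1 array.

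Of 17974 genes limma called 338, of which 55.3% were higher. It called 886 with normexp and 1547 with a trended and robust variance prior, of which 44.9% were higher. It called 0 of 32496 with no filter on dim probes (3655 at an unadjusted p under 0.05), and 0 to 135 with 1 array left out. Without RFF11 replicate 1 or 2 it called 0 (3591 and 2956 at an unadjusted p under 0.05), and without RFF replicate 1 or 2 it called 117 and 135, of which 15 and 31 were among the 338. For the lymphoid signalling genes the count of 5 became 11 with normexp, 15 with that prior, 0 with no filter (22 at an unadjusted p under 0.05), and 0 to 2 with 1 array left out. The cause was not tested, beyond the fewer arrays or the larger number of genes tested. With the replicate number as a block, limma called 0 genes and 0 signalling genes (3677 and 25 at an unadjusted p under 0.05). Deviations of same-numbered arrays correlated at -0.05 over genes. The labels do not say whether same-numbered arrays were paired, and 2 arrays per genotype cannot settle it. Signals near background limit Txk, Blk and the dimmer probes of Zap70, Sla2 and Tcf7.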
